A study of Mus musculus with 4 samples.

Results

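The genes described here act in the first steps of T cell receptor signalling: the receptor's invariant chains and coreceptors, the tyrosine, serine/threonine and lipid kinases they engage, the adaptor proteins that assemble around them, the effectors recruited to those adaptors, regulators of the actin cytoskeleton, and phosphatases. They were listed by name, 50 names for 49 genes, since Gads is the protein name of Grap2. Of these, 42 genes, among 12393 genes in all, had at least 1 probe set annotated to that gene alone. Each was represented by its brightest probe set, the one with the highest mean signal over the arrays. The list goes by gene function and its rule uses no measured difference, but it was chosen with earlier results of these data known. Lck, Mapk3, Skap1, Themis, Malt1, Ptpn7 and Ubash3a were not analysed here, so the kinase that starts the cascade is not covered. Plcg1 was at 1.5 to 3.2 on the arrays and lay below the filter on dim probe sets (a mean signal of 21.3), which left 41 measured genes. The text speaks of these 41 unless it says otherwise.

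RNA from CD4 cells of mice was hybridised to 4 MOE430A arrays, 2 from wild type mice (+/+) and 2 from sanroque mice (san/san). Sanroque is a recessive mutant line that came out of ENU mutagenesis of C57BL/6 males and a screen for antinuclear autoantibodies, and its mutation is known to affect Rc3h1, the gene of Roquin-1, a repressor of mRNAs. All sanroque arrays therefore hold RNA of homozygous mutants, and no other allele, treatment or time point was compared. The sources used here give neither the age and sex of the profiled mice nor whether 2 arrays of 1 genotype came from separate animals, so a p-value here rests on array-to-array spread that can be technical. The experiment information of both number 1 arrays names sorted T cells. That of wild type array 2 has the unexplained letters CBA, so an effect of strain background cannot be told apart from the mutation.

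As background, the T cell receptor has no enzyme of its own. When it binds its ligand, kinases of the Src family phosphorylate tyrosine motifs in the cytoplasmic tails of the CD3 chains and of the zeta chain (Cd247), Zap70 docks there and phosphorylates the adaptors Lat and Lcp2, and these gather the enzymes that open the calcium, Ras, protein kinase C and actin branches. In CD4 cells the coreceptor CD4 brings a Src family kinase to the receptor, and phosphatases and inhibitory adaptors set the threshold.

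The labelled cell type was checked first. The 7 genes on the array that were listed as CD4 T cell markers were Cd4, Cd3e, Cd3d, Cd3g, Lat, Cd5 and Cd28. All passed the filter, and their summed signal was 9102.4 to 9775.0 in wild type and 8339.8 to 9355.2 in sanroque. Each is a member or 1 of the further pathway genes treated below, so this sum is not independent of the results. Apart from Cd4, these genes are shared by other T cells, so the sum reads T cells and does not test the CD4 label. Cd8a, of the CD8 coreceptor, read 46.6 to 50.1 in wild type and 54.5 to 68.3 in sanroque. Markers of other cells were not at 0. The summed signal of 8 B cell markers was 1299.9 to 1353.8 and 1232.6 to 1303.7, that of 7 markers of CD8 T or NK cells 476.9 to 535.5 and 536.8 to 576.7, and that of 13 myeloid markers 1595.6 to 1743.4 in wild type against 3184.9 to 3210.5 in sanroque. In that last list 4 genes passed the test as higher, namely Ngp, Lyz2, S100a8 and S100a9. For 4 markers of red cells or platelets the sums were 655.7 to 698.0 and 963.1 to 1073.9, and for 3 plasma cell markers 505.0 to 532.6 and 381.0 to 434.3. Alas2 made up most of the red cell or platelet sums, with 604.4 and 637.4 in wild type and 905.2 and 1027.4 in sanroque. Pf4 was lower in sanroque, and Ppbp and Hba-a1 lay below the filter. Jchain made up most of the plasma cell sums. None of the markers in these lists was at 0 on any array. Many genes of the receptor pathway, such as Ptprc, Was, Hcls1, Csk and Pik3cd, are also used by B and myeloid cells, and the part of such cells in the differences below was not tested. In bulk RNA fewer cells of a type and less RNA per cell cannot be told apart.

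Sanroque was set against wild type to ask whether transcripts of the receptor-proximal machinery differ in CD4 cells of the mutant. None of the 41 genes passed the limma test over all probe sets (lowest adjusted p = 0.337, for Ptpn2), while 1.11% of the 7860 genes measured did. That test took no account of the day on which the arrays were hybridised, and the fit that did is given below. At an unadjusted p under 0.05 there were 4 members, Ptpn2, Cd247, Sla and Hcls1, which is 9.76% against 9.58% of all genes. Differences are given as sanroque minus wild type on the scale log2(signal + 6). They ran from -0.51 to 0.41 with a median of -0.09, against a median of 0.03 over all genes. Of the members 16 were above 0 and 25 below (39.0% above 0, against 54.2% of all genes). The sign of the members' median rested on single arrays: it was 0.03 without wild type array 2 and 0.05 without sanroque array 1, with 24 genes above 0 in each case.

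The arrays limited what could be seen, but the intervals were narrow for most of these genes. With 2 arrays per genotype, the intervals draw on variance shared by genes of similar signal as well as on a gene's own spread. For 39 of 41 (95.1%) the 95% interval of the difference lay within 1 log2 unit, a doubling or halving, on either side of 0, against 75.0% of all genes. The exceptions were Sos1, near the filter, and Grap2, where wild type array 2 read 111.7 and the other arrays 48.6, 50.3 and 50.8. The members had a median signal of 429.8, against 106.1 over all genes, so these shares set brighter genes against dimmer ones. The median absolute difference between genotypes was 0.16, and that between the arrays of a genotype was 0.18 in wild type and 0.19 in sanroque. These values are not alike. The first is a difference of means, while the gaps lie between single arrays, which vary more, and also hold any difference between hybridisation days. Which is larger therefore does not show whether the genotypes differ by more than noise. For 14 genes the genotype difference was larger than both gaps, a count with the same limit. The same count was not made over all genes, so the 14 are a description and no result about the members. The arrays fall into pairs hybridised on the same day, number 1 and number 2. The signal was higher on the number 2 array in both genotypes for 20 genes and on the number 1 array for 8.

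With the hybridisation day as a block, 1 gene passed as lower, Ptpn2, and none as higher. Over all genes 2.12% passed as lower and 3.92% as higher in that fit, so 1 of 41 is near the background. With 4 arrays the blocked fit can learn little from a gene's own spread. Its standard errors come largely from the variance shared by genes of similar signal, so a pass is no replication across days. At an unadjusted p under 0.05 the blocked fit had 12 members (29.3%, against 18.8% of all genes). The 4 arrays separated by genotype without overlap for 11 members with sanroque higher, where 22.3% of all genes did, and for 8 with sanroque lower, where 16.3% did. The difference had the same sign on both days for 26 members (63.4%, against 62.2% of all genes).

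**Figure D1:**
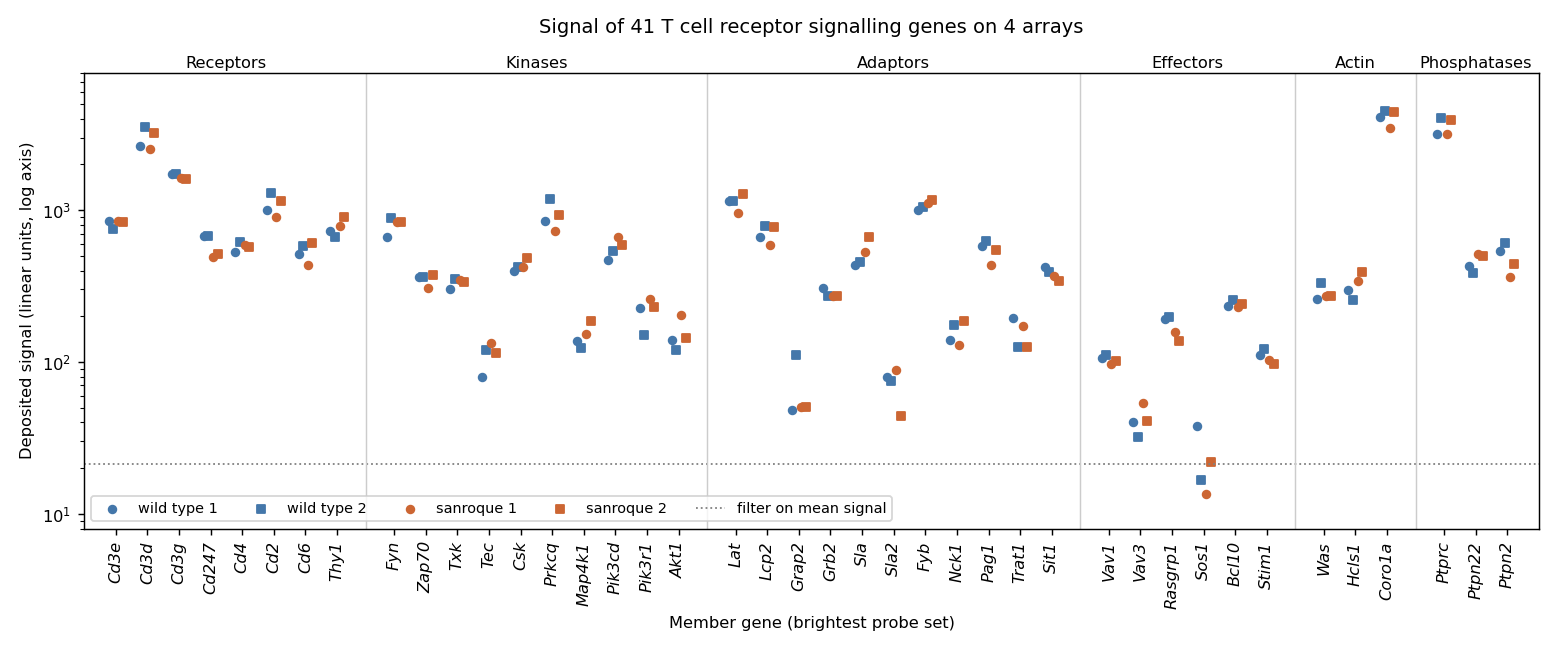
Deposited signal (linear units on a log axis) of each of the 41 measured genes on the 4 arrays, by role, with circles for number 1 and squares for number 2 arrays, wild type in blue and sanroque in orange; the dotted line is the filter at a mean signal of 21.3. The genotypes sit together for most genes, and in Cd3d, Prkcq and Ptprc the number 2 arrays lie above the number 1 arrays in both colours.

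The invariant chains of the receptor were abundant in both genotypes and did not pass the test. Cd3e, Cd3d and Cd3g lie together on chromosome 9 and Cd247 on chromosome 1. The starts of Cd3d and Cd3g used here point away from each other and are 1355 bases apart. These 4 genes build a single complex from chromosomes 9 and 1. The 250 bases before 1 annotated start of each are therefore shown (RefSeq, GRCm38.p6, 5′ to 3′ on the gene's strand). Capitals mark the motifs CAGGAAG, read by ETS factors, and CAGGTG, an E-box read by E proteins, or their reverse complements CTTCCTG and CACCTG; no 2 matches overlap.

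Cd247: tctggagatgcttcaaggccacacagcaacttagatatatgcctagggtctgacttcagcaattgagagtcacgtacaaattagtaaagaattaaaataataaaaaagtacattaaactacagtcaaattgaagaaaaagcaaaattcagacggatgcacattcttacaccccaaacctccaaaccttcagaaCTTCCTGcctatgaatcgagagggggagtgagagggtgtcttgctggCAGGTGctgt

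Cd3e: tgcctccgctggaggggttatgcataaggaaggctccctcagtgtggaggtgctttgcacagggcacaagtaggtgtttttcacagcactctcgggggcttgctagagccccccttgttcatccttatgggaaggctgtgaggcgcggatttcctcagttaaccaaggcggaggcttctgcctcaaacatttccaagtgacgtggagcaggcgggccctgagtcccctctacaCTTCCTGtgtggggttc

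Cd3d: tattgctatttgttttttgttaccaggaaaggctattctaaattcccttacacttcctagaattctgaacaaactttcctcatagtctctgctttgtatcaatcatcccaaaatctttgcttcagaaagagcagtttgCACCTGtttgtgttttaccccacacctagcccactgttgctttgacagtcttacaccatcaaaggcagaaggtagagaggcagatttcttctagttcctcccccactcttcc

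Cd3g: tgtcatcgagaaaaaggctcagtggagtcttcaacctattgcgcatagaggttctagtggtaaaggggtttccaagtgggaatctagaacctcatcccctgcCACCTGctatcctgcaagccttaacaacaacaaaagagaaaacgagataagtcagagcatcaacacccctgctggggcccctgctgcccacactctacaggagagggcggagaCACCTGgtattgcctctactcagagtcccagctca

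The Cd247 window (chr1:165788431-165788680, plus strand) held 1 match to each motif. The Cd3e window (chr9:45009612-45009861, minus strand) held 1 match to the ETS motif 17 bases before the start used. The annotated span of Cd247 begins at 165779952, so its window lies inside the gene. Those of Cd3e (from 45009663 on the minus strand) and Cd3d (from 44981769) overlap part of their windows. The Cd3d window (chr9:44981536-44981785, plus strand) had 1 E-box and the Cd3g window (chr9:44980432-44980681, minus strand) 2. Among 32851 promoter windows of the same length, 10.8% hold the ETS motif and 17.2% the E-box on either strand, so a match here is a description only.

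Cd247 encodes the zeta chain, which carries most of the receptor's tyrosine motifs. Its signal was 672.1 and 674.0 on wild type arrays 1 and 2 and 494.1 and 512.7 on sanroque arrays 1 and 2. Both sanroque arrays were below both wild type arrays, by more than the spread within either genotype. The difference was -0.41 (standard error 0.165, 95% interval -0.78 to -0.05), with -0.44 on day 1 and -0.39 on day 2, and it did not pass over all probe sets (limma adjusted p = 0.425, and 0.0792 with the block). Another Cd247 probe set read 478.2 and 452.9 in wild type and 287.5 and 333.0 in sanroque, again without overlap. It had -0.58 and did not pass (adjusted p = 0.216), but did with the day as a block (limma adjusted p = 0.0142). A dim probe set of Cd247 had -0.62, which came from day 1 alone (-1.25 on day 1 and 0.02 on day 2). All 3 measured probe sets of the gene were thus below 0.

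The genes of the other chains were closer to level. Cd3g, of the gamma chain, read 1728.6 and 1734.4 in wild type and 1627.0 and 1594.6 in sanroque, which do not overlap, but the difference was only -0.10 (95% interval -0.48 to 0.28). Cd3d, of the delta chain, read 2632.8 and 3522.6 in wild type and 2524.0 and 3228.7 in sanroque. Here the days stood further apart than the genotypes, and the difference was -0.09 (95% interval -0.57 to 0.38). Cd3e, of the epsilon chain, had 0.07 (95% interval -0.31 to 0.44) with 851.4 and 755.3 against 849.2 and 833.1. Whether Cd247 differs from the other chains was not tested.

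Among the surface receptors, the coreceptor Cd4 read 533.3 and 613.5 in wild type and 585.9 and 570.2 in sanroque. The arrays overlapped, with means of 573.4 ± 56.7 and 578.1 ± 11.1 (SD, n = 2 per genotype) and a difference of 0.01 (95% interval -0.36 to 0.39). Its other probe set had -0.24 and did not overlap between the genotypes (limma adjusted p = 0.751). The adhesion receptor Cd2 had -0.16 and the scavenger receptor family member Cd6 -0.09, both with overlapping arrays. Thy1, a GPI-anchored surface glycoprotein of T cells, read 726.5 and 668.3 in wild type and 791.2 and 895.5 in sanroque. Both sanroque arrays were higher, with a difference of 0.27 (95% interval -0.11 to 0.65; limma adjusted p = 0.686). Over all 8 receptor genes the median was -0.09, with 3 above 0 and 5 below. Under quantile normalization it was 0.01, with 4 on each side.

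**Figure D2:**
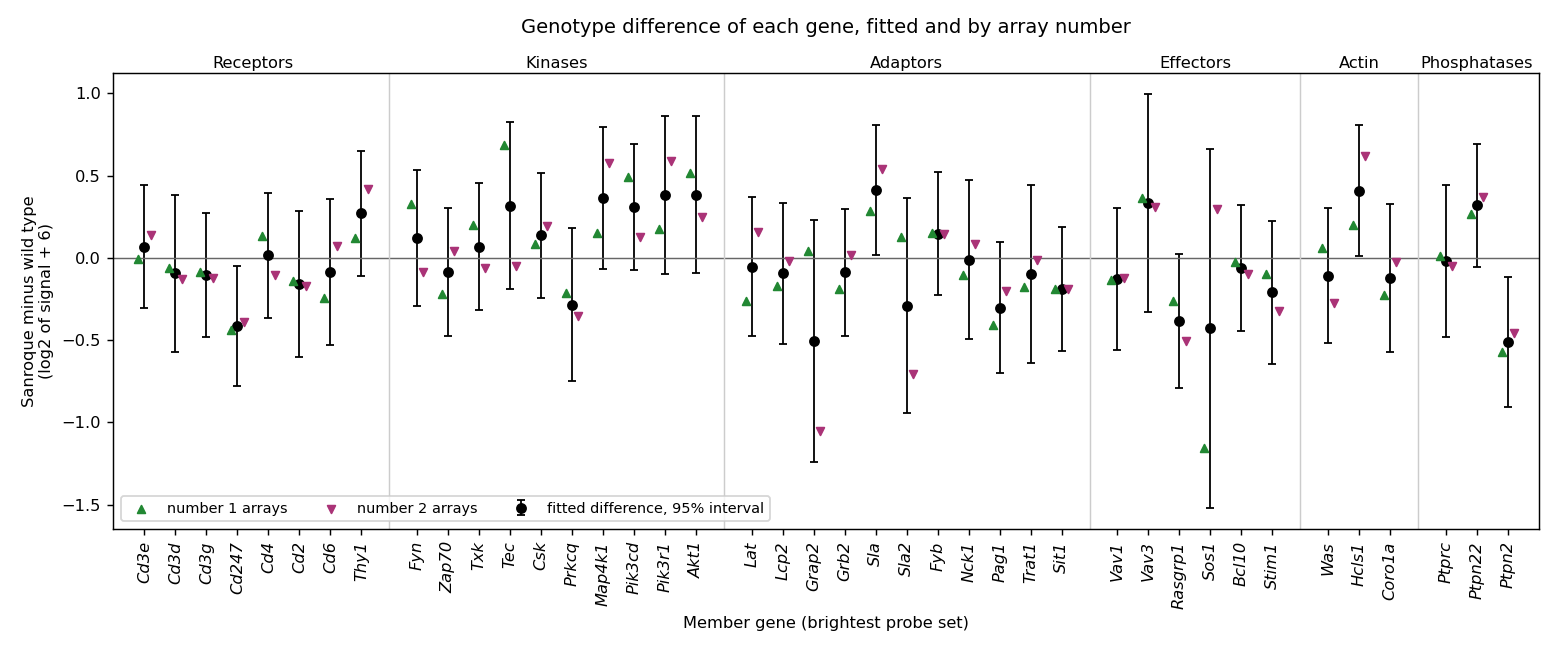
Sanroque minus wild type (log2 of signal + 6) for the 41 genes by role: black points are the limma difference with its 95% interval, green and purple triangles the differences on the number 1 and number 2 arrays. The intervals of Cd247, Sla, Hcls1 and Ptpn2 leave out 0 before adjustment over all probe sets, and the widest belong to Grap2 and Sos1.

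Of the 10 measured kinase genes 8 were above 0 and 2 below, with a median of 0.22, and none passed (limma adjusted p = 0.606 to 0.958, and 0.177 or more with the block). With each array centred on its median 7 were above 0, with a median of 0.13, and without wild type array 1 there were 6, with 0.07. By the mean of each gene's probe sets 7 were above 0, with a median of 0.10. Zap70, the kinase that binds the phosphorylated receptor tails, read 359.8 and 360.7 in wild type and 308.8 and 371.8 in sanroque. The genotypes overlapped, and the difference was -0.09 (95% interval -0.48 to 0.30). The Src family kinase Fyn had 0.12 by its brightest probe set and 0.35 by another, and Csk, which holds Src family kinases inactive, had 0.14 (95% interval -0.24 to 0.52). The Tec family kinases Txk and Tec had 0.07 and 0.32. The value of Tec came from day 1 (0.68, against -0.05 on day 2).

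Akt1, a serine/threonine kinase downstream of PI3-kinase, read 140.1 and 119.4 in wild type and 203.1 and 143.1 in sanroque. All sanroque values were above all wild type values, with a difference of 0.38 (standard error 0.216, 95% interval -0.09 to 0.86), and its other probe set had 0.42. Without sanroque array 1 the difference was 0.14, and without sanroque array 2 it was 0.63. The MAP4 kinase Map4k1, which dampens receptor signalling through Lcp2, read 138.1 and 123.1 against 153.9 and 186.8, with a difference of 0.36 (95% interval -0.07 to 0.79) that was 0.23 without sanroque array 2. Pik3cd, the catalytic subunit of PI3-kinase used in lymphocytes, had 0.31 by its brightest probe set, without overlap. Its other probe sets had 0.01 and -0.18, so the gene had no single direction. Prkcq, the protein kinase C of the T cell synapse, had -0.28 (95% interval -0.75 to 0.18), from 844.9 and 1182.8 in wild type and 728.8 and 923.5 in sanroque. On each day the sanroque array was the lower, although the genotypes overlapped across days. The size rested on single arrays: it was -0.04 without wild type array 2 and -0.52 without wild type array 1.

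Pik3r1, the regulatory subunit of PI3-kinase, was the gene whose probe sets disagreed most plainly. The brightest read 228.0 and 151.1 in wild type and 258.4 and 229.9 in sanroque, a difference of 0.38 (adjusted p = 0.637) that was 0.09 without wild type array 2 and 0.67 without wild type array 1. Another read 191.0 and 233.4 against 153.6 and 136.2, a difference of -0.53 (limma adjusted p = 0.364, and 0.0545 with the block), and the remaining one had -0.46. The genotypes did not overlap in any of these probe sets, yet the first was higher and the others lower in sanroque. The RefSeq promoter table holds 2 start sites for Pik3r1, and which transcripts each probe set reads was not tested. The mean over its probe sets was -0.20, opposite in sign to the brightest.

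**Figure D3:**
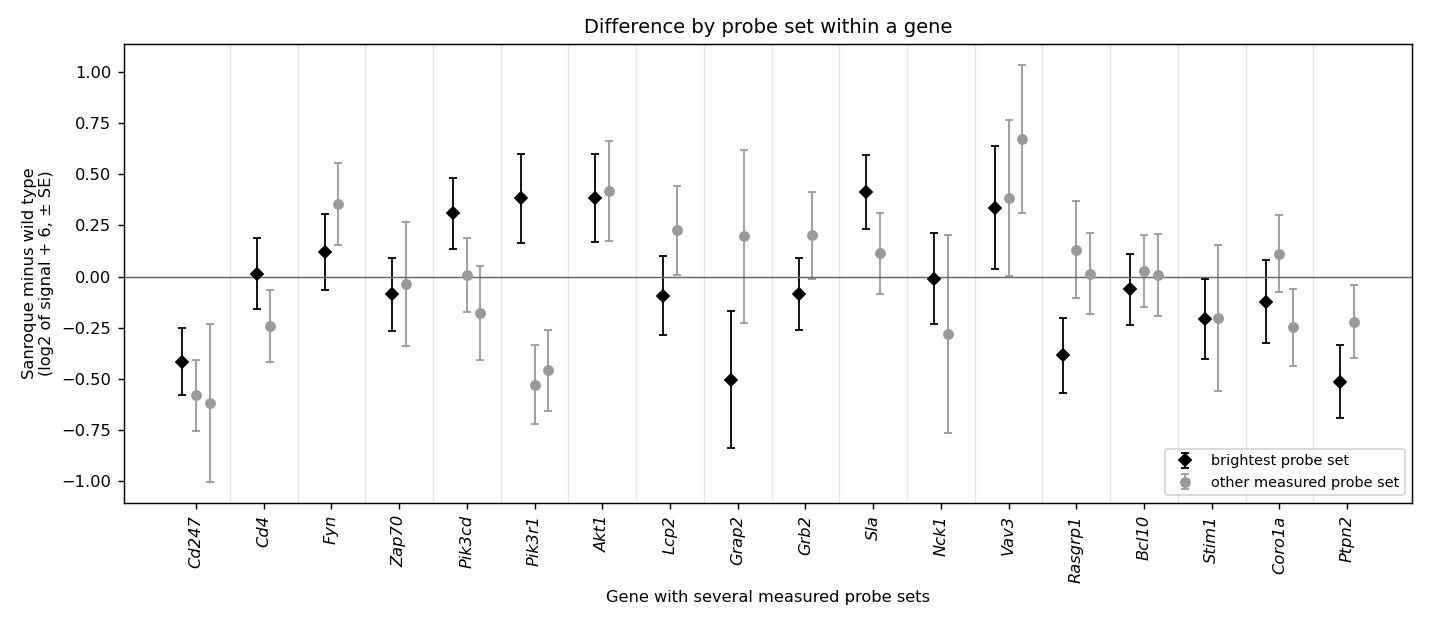
Difference (log2 of signal + 6, bars are the standard error) for each measured probe set of the 18 genes with more than 1, with the brightest as a black diamond and the others in grey. The 3 probe sets of Cd247 lie below 0 and those of Akt1 and Vav3 above it, while Pik3r1, Rasgrp1 and Grap2 have probe sets on both sides.

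In all, 18 genes had more than 1 measured probe set. For 9 of them the signs were the same and for 9 they differed, namely Cd4, Pik3cd, Pik3r1, Lcp2, Grap2, Grb2, Rasgrp1, Bcl10 and Coro1a. Of 66 measured probe sets of the 41 genes, limma with the block called 2 (3.03%), of Cd247 and Ptpn2, where it called 6.27% of all probe sets.

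Adaptor genes were mostly near level. Lat, the membrane scaffold phosphorylated by Zap70, read 1141.6 and 1144.1 in wild type and 950.4 and 1276.3 in sanroque. The sanroque arrays lay on either side of the wild type arrays, and the difference was -0.05 (95% interval -0.47 to 0.37). Lcp2, which encodes SLP-76, had -0.09 by its brightest probe set and 0.23 by a dim one. Grb2, which brings the Ras activator Sos1 to Lat, had -0.09 and 0.20 by its probe sets, and Nck1, which links SLP-76 to actin regulators, had -0.01. Grap2, which encodes Gads and joins SLP-76 to Lat, read 48.6 and 111.7 in wild type and 50.3 and 50.8 in sanroque. Only wild type array 2 stood apart, and without it the difference of -0.50 (95% interval -1.24 to 0.23) was 0.05.

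Sla, an adaptor that directs receptor chains to degradation, had the largest positive difference among the members in the fit over all arrays. It read 435.7 and 453.0 in wild type and 532.1 and 661.6 in sanroque, without overlap. The difference was 0.41 (standard error 0.179, 95% interval 0.02 to 0.81), with 0.28 on day 1 and 0.54 on day 2, and it did not pass (limma adjusted p = 0.481, and 0.0895 with the block). Without sanroque array 2 it was 0.26, and its other probe set had 0.11. The related Sla2 had -0.29, from 80.1 and 75.3 against 88.0 and 43.8, where a single sanroque array was low. Fyb, the adhesion adaptor ADAP, had 0.15 on each day (996.6 and 1054.3 against 1105.5 and 1169.0).

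The other transmembrane adaptors had small negative differences that did not pass. Pag1, which brings Csk to the membrane, read 579.2 and 624.5 in wild type and 435.5 and 543.6 in sanroque, without overlap, and had -0.30 (95% interval -0.70 to 0.10; limma adjusted p = 0.655). Without sanroque array 1 it was -0.14, and its other probe set lay below the filter. Sit1, an adaptor that binds inhibitory phosphatases, read 421.7 and 392.6 against 369.4 and 343.6, with -0.19 on each day. Trat1, which stabilises the receptor complex, had -0.10 and overlapped. Over the 11 measured adaptor genes the median was -0.09, with 2 above 0 and 9 below. That split rested on single arrays: it was 5 and 6 without wild type array 2 (median -0.05) or without sanroque array 1 (median -0.08), and 4 and 7 without either of the others.

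Among effectors, Rasgrp1, the diacylglycerol-dependent Ras activator of T cells, read 191.2 and 198.5 in wild type and 158.3 and 138.0 in sanroque. These did not overlap, and the difference was -0.38 (standard error 0.184, 95% interval -0.79 to 0.02; limma adjusted p = 0.541). The other Rasgrp1 probe sets had 0.13 and 0.01. Vav1, an exchange factor of blood cells, had -0.13 (95% interval -0.56 to 0.30). Its relative Vav3 was dim, at 40.3 and 31.9 against 53.5 and 41.0, and had 0.34 (95% interval -0.33 to 1.00), with 0.38 and 0.67 by its other probe sets. Without sanroque array 1 it was 0.17. Stim1, the calcium sensor of the endoplasmic reticulum, read 110.4 and 122.4 against 103.0 and 96.8 and had -0.21, which was -0.14 without wild type array 2. Its other probe set had -0.20 with overlapping genotypes, and its days went opposite ways (0.75 on day 1 and -1.16 on day 2). Bcl10, which joins the receptor to NF-kB signalling, was level, with -0.06, 0.03 and 0.01 by its probe sets. Sos1, an exchange factor that activates Ras, was near the filter (37.6 and 16.6 in wild type, 13.6 and 21.8 in sanroque), and its difference of -0.43 had an interval of -1.52 to 0.66. None of the 6 passed, and their median was -0.17.

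The actin regulators went different ways. Hcls1, a cortactin homologue of blood cells that binds the Arp2/3 complex, read 296.2 and 254.0 in wild type and 341.2 and 393.0 in sanroque. Both sanroque arrays were higher, with a difference of 0.41 (standard error 0.18, 95% interval 0.01 to 0.81; limma adjusted p = 0.489), 0.20 on day 1 and 0.62 on day 2. The myeloid marker sums given above were also higher in sanroque, and their part in this value was not tested. Was, the Wiskott-Aldrich syndrome protein, had -0.11 and overlapped. Coro1a, which encodes coronin 1A, read 4072.9 and 4494.1 against 3486.5 and 4423.9, a difference of -0.12 (95% interval -0.57 to 0.33), while its other probe sets had 0.11 and -0.25.

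Of the phosphatases, Ptpn2, which dephosphorylates Src family and JAK kinases, had the largest difference of all members in the fit over all arrays. It read 540.4 and 604.7 in wild type and 361.8 and 439.8 in sanroque, so that both sanroque arrays were below both wild type arrays. The difference was -0.51 (standard error 0.179, 95% interval -0.91 to -0.12), with -0.57 on day 1 and -0.45 on day 2. It did not pass limma without the block (adjusted p = 0.337) and passed with it (adjusted p = 0.0269). With the block its standard error was 0.145, taken largely from the variance shared across genes. Over the other alternatives its limma adjusted p ran from 0.199 to 0.962. Another Ptpn2 probe set read 365.2 and 446.8 against 354.9 and 337.3, also without overlap, but had -0.22 and did not pass in either fit (limma adjusted p = 0.784 and 0.47). Ptpn22, a phosphatase that acts with Csk on Src family kinases, went the other way. It read 426.9 and 384.6 in wild type and 515.2 and 498.7 in sanroque, without overlap, and had 0.32 (95% interval -0.05 to 0.69; limma adjusted p = 0.603). Ptprc, which encodes CD45, read 3162.1 and 4023.0 against 3186.3 and 3890.0. The arrays of a day were almost equal, and the difference was -0.02 (95% interval -0.48 to 0.44).

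A further 68 genes of receptor signalling that are not members were listed, also with earlier results of these data known, and 50 of them were measured. None passed limma without the block, and 8 (16%, against 9.58% of all genes) had an unadjusted p under 0.05. With the day as a block 4 of the 50 passed, 1 higher and 3 lower, where 3.92% of all genes passed as higher and 2.12% as lower. Their median was 0.06, with 28 above 0 and 22 below. Ptpn6, which encodes the inhibitory phosphatase SHP-1, read 582.8 and 585.9 in wild type and 264.9 and 448.0 in sanroque, a difference of -0.75 (limma adjusted p = 0.236, and 0.00245 with the block). The day 1 arrays held most of it (-1.12, against -0.38 on day 2), it was -0.38 without sanroque array 1, and another Ptpn6 probe set had -0.06. Ptpn11, of the related phosphatase SHP-2, read 208.1 and 297.9 against 362.1 and 435.2 and had 0.66 (limma adjusted p = 0.255, and 0.00519 with the block). It was 0.41 without wild type array 1. Another measured Ptpn11 probe set, near the filter, had 0.17. Orai1, the pore of the calcium channel that STIM1 opens, read 232.4 and 269.3 against 173.5 and 167.3 and had -0.54 (limma adjusted p = 0.303, and 0.0379 with the block), while its other probe set had 0.05. Cbl, a ubiquitin ligase that removes active receptors, passed with the block (limma adjusted p = 0.0101), but its value of -1.20 rested on a single array. Its standard error with the block was 0.298, although its days gave 0.05 and -2.46. Wild type array 2 read 307.3 where the others read 48.3, 50.2 and 51.0, and without it the difference was 0.06. Cd5, an inhibitory coreceptor, read 925.3 and 973.8 against 693.7 and 759.8 and had -0.38 (limma adjusted p = 0.488, and 0.103 with the block).

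**Figure D4:**
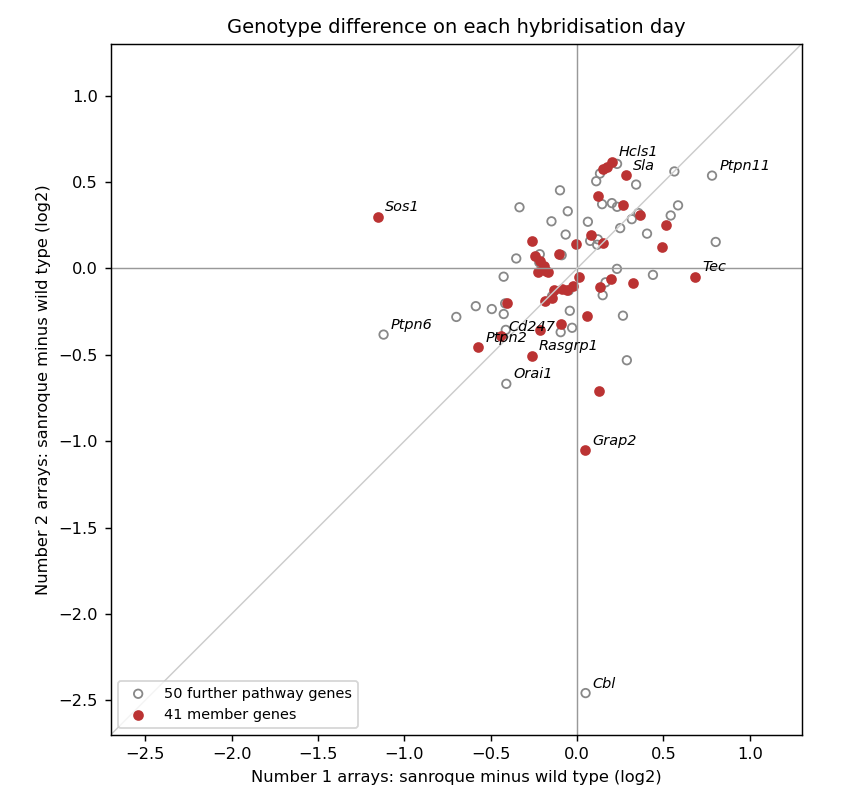
Sanroque minus wild type (log2 of signal + 6) on the number 2 arrays against that on the number 1 arrays, for the 41 member genes (red) and 50 further pathway genes (open grey); the diagonal marks equal values. Ptpn2 and Cd247 lie close to the diagonal below 0, while Sos1, Tec, Grap2 and Cbl lie far from it, with most of their value on 1 day.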

How the data were processed

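The authors' deposited table holds a linear intensity for each probe set on each array. How the probes were summarised and the background corrected is not given in the sources used here. Trimmed means (2% to 98% percentile) were 99.59 to 99.97 on the 4 arrays, so no further scaling was applied. Genotypes and replicate numbers came from the titles. Both same-numbered pairs shared a hybridisation day, per the file headers. Their deviations from the genotype means correlated with 0.392 across probe sets, so the numbers pair the arrays. Tests used log2(signal + 6), with 6 from the rounded 20th percentile of the table, a scale that understates changes of dim probe sets. Of 22690 probe sets, 13579 were tested, after removal of 64 controls and of means under the 40th percentile (21.3). The test was limma 3.58.1 in R 4.3.3 (lmFit, eBayes with a variance trend, no covariates, two-sided), with p-values adjusted over the whole table by Benjamini-Hochberg and called at 0.05. Symbols came from the platform annotation, updated by gene identifier. The members and lists were chosen with earlier results of these data known. Fully described are members past the test in either fit, the 3 largest non-overlapping differences and the brightest gene of each role, and members whose probe sets differ in sign. Others are given more briefly. Of the 68 pathway genes, those past the test and the 3 largest differences are named, and Cd5 was added after its values were seen. The fit was tested on simulated data. Figures were drawn with matplotlib 3.10.9.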

Additional observations from a re-analysis of the deposited data

How the results depend on the processing

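Each result was recomputed under 13 alternatives. The day as a replicate block changed the calls: 1 member passed in place of 0, 4 further pathway genes in place of 0, and 852 probe sets in place of 144. It moved no other named gene past the threshold than Ptpn2, Orai1, Ptpn6, Ptpn11 and Cbl. Without the filter 56 probe sets passed, and 47 without the variance trend. Leaving out an array gave 0 members, 0 to 1 pathway genes and 105 to 356 probe sets. The lone array of its genotype is then assumed to vary like the others. Without wild type array 1 Cbl passed (-2.47), without wild type array 2 Ptpn11 (0.91), and without sanroque array 2 Ptpn6 (-1.12).

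Of 389 values of 30 named genes, 22 changed sign, and none of these passed. The cause was not tested. Quantile normalization turned Cd3d to 0.032, Lat to 0.011 and Ptprc to 0.084, and median centring turned Cd4 to -0.074. The mean over a gene's probe sets turned Pik3r1 to -0.20, Cd4 to -0.11, Lcp2 to 0.066 and Grb2 to 0.057. The other sign changes came from leaving out an array. There the values ran from -0.303 to 0.117 for Cd3d, from -0.265 to 0.159 for Lat, from -0.124 to 0.00070 for Bcl10, from -0.295 to 0.048 for Coro1a, from -0.192 to 0.155 for Ptprc, from -0.085 to 0.115 for Cd4, from -0.290 to 0.101 for Lcp2, from -0.181 to 0.0070 for Grb2, from -1.06 to 0.051 for Grap2 and from -2.47 to 0.060 for Cbl. With 2 arrays a genotype, small differences in single genes were not detectable.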
